A study of Homo sapiens with 3 samples.

Results

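The genes described here are 10 chemokines: the CXCR3 ligands CXCL9, CXCL10 and CXCL11, the neutrophil attractants CXCL1, CXCL2, CXCL3 and CXCL8, the membrane-anchored CXCL16, and the CC chemokines CCL2 and CCL20. They were chosen by symbol from the annotation of the arrays' transcript clusters, among 14410 genes with a symbol of their own. For 9 of them a cluster carried that symbol alone. CXCL1 had only a cluster annotated to both CXCL1 and CXCL2, which is described as a joint cluster and left out of every count.

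RNA from 3 established human cell lines was hybridised to exon arrays, a single array for each. HT-29, from a colon adenocarcinoma, was kept in McCoy's 5A medium with 10% fetal bovine serum under 5% CO2 and received interferon gamma (IFN-γ) at 200 U/ml for 24 h. MCF10A, a mammary epithelial line that does not form tumours, was kept in DMEM/F12 with horse serum at 5%. Its medium also held insulin at 10 µg/ml, cholera toxin at 100 ng/ml, hydrocortisone at 500 ng/ml and epidermal growth factor (EGF) at 20 ng/ml. The breast adenocarcinoma line MDA-MB-436 was kept in L-15 medium with fetal bovine serum at 10% and no added CO2, and the labels give no IFN-γ for either mammary line. All 3 were cultured lines, with no stroma or leukocytes named. No HT-29 culture without IFN-γ was analysed here, so line, medium and cytokine cannot be told apart in any difference from HT-29. Since each line had a single array, the spread between replicates is unknown, no test was possible, and every difference describes these arrays.

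Chemokines are small secreted proteins that steer leukocytes along gradients through G protein-coupled receptors. CXCL9, CXCL10 and CXCL11 share the receptor CXCR3, found on activated T cells and natural killer cells, and are textbook IFN-γ targets. CXCL1, CXCL2, CXCL3 and CXCL8 carry the Glu-Leu-Arg (ELR) motif ahead of the first cysteines, act on CXCR1 and CXCR2, attract neutrophils, and are known targets of the transcription factor NF-κB. CXCL16 binds CXCR6, CCL2 attracts monocytes through CCR2, and CCL20 attracts CCR6-bearing cells to mucosal epithelium.

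Promoter sequences, from 250 bases before to 50 after the start of each gene, were matched by symbol for 8 of the 10 genes in RefSeq's annotation of GRCh38.p14. The stretch before the start is printed for the CXCR3 ligands and CXCL8, because these genes differed most between HT-29 and MDA-MB-436 in opposite directions among those matched. Capitals mark matches on either strand to the core of an interferon-stimulated response element (ISRE: TTTC, any 2 bases, TTTC), TTCNNNGAA (the form of a STAT site), GGNNNTTCC and GGAATTTCC (both forms of an NF-κB site, the second contained in the first). All are written 5′ to 3′ on the strand of the gene. They lie at chr4:76007510-76007759 (minus strand) for CXCL9, chr4:76023498-76023747 (minus) for CXCL10, chr4:76036071-76036320 (minus) for CXCL11 and chr4:73740319-73740568 (plus) for CXCL8.
CXCL9: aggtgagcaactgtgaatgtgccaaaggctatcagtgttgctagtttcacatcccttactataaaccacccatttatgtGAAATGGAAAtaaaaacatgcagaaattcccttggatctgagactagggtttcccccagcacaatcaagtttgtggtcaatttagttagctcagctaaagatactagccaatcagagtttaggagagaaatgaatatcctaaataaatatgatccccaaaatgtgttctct
CXCL10: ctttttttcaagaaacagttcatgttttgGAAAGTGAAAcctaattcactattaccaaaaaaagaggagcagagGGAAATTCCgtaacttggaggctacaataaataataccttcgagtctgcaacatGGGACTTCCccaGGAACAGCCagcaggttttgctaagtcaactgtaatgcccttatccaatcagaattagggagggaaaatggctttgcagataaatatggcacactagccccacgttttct
CXCL11: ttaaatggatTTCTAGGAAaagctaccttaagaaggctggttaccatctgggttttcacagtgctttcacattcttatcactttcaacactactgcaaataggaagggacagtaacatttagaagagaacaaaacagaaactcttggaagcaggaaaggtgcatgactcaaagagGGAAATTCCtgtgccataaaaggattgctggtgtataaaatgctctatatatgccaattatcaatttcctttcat
CXCL8: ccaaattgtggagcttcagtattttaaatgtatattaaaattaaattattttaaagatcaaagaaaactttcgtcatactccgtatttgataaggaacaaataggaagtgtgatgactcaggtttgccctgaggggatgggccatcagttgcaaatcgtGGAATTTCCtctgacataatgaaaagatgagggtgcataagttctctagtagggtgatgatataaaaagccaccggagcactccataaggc

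GGAATTTCC was present in 6 of the 8 promoters, those of CXCL1, CXCL2, CXCL3, CXCL8, CXCL10 and CXCL11. It was present in 0.461% of the 35116 promoters of that length and in 2 of the 24 matched promoters of other chemokines, CXCL5 and CXCL6. GGNNNTTCC was present in 7 of the 8, against 20.1% of all promoters and 6 of the 24, and CCL20 held it without the longer form. The ISRE core was present in CXCL9 and CXCL10, against 3.57% of all promoters and 0 of the 24 other chemokine promoters. TTCNNNGAA was present in CXCL11 alone of the 8, against 7.66% of all promoters and 6 of the 24 other chemokine promoters. In CXCL11 it also matched once after the start, in bases not printed. A match describes letters in this window and is neither a binding site nor a cause of any difference.

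CXCL1, CXCL2 and CXCL3 are related copies on chromosome 4. Aligned end to end, their promoters were identical at 82.5% of aligned columns for CXCL1 and CXCL3, 73.8% for CXCL2 and CXCL3, and 71.9% for CXCL1 and CXCL2. The other 25 pairs among the 8 promoters lay between 44.3% and 55.4%. The stretch from 110 to 41 bases before the start is printed below, because in all 3 it holds GGAATTTCC followed by a further GGNNNTTCC match. The stretches lie at chr4:73869283-73869352 (plus strand) for CXCL1, chr4:74099236-74099305 (minus) for CXCL2 and chr4:74038730-74038799 (minus) for CXCL3.
CXCL1: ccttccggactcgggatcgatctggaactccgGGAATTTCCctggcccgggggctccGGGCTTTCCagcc
CXCL2: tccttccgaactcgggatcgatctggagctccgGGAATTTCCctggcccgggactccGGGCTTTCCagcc
CXCL3: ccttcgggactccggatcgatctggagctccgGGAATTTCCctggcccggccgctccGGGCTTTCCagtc

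Intensities are the deposited linear values, and folds and calls compare the same gene between arrays. Median intensities over all clusters were between 75.1 and 81.0 on the 3 arrays. The background was 29.9, the 95th percentile of 228 olfactory receptor genes, whose highest value was 101. A gene was counted as higher or lower when it differed by at least 4-fold and its brighter array exceeded the background. Where the dimmer array was under the background, the fold was taken against the background and is written as at least. Against their labels, HT-29 had 6 of 7 colon markers above background (CDH17 was under it), and 4 of the 7 were at least 4-fold higher there than in either mammary line. CDX1 and CDX2 were not, at 34.8 and 74.8 in HT-29 against 33.3 and 51.9 in MDA-MB-436. MCF10A had 2 of these 7 above background and MDA-MB-436 had 3. All 4 measured basal mammary markers were above background in MCF10A, 2 in HT-29 and 0 in MDA-MB-436, and the 6 mesenchymal markers numbered 6 in MDA-MB-436, 5 in MCF10A and 0 in HT-29. Of 15 measured leukocyte markers, between 2 and 5 were above background per array and their summed intensity was 310.05 to 363. None was at 0, and the pan-leukocyte gene PTPRC was under background on every array, at 3.1 to 4.2. The monocyte marker CD14 was above it on every array, at 38.9 in HT-29, 86.5 in MDA-MB-436 and 156 in MCF10A, and the B cell marker MS4A1 was at 67.98, 30.3 and 16.6 in that order.

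The CXCR3 ligands were the members with the greatest differences between HT-29 with IFN-γ and MCF10A, and all 3 were higher in HT-29. CXCL9 had an intensity of 716 in HT-29, 6.62 in MDA-MB-436 and 6.91 in MCF10A. It was above background in HT-29 alone and at least 23.9-fold brighter there than in either mammary line. No fold is given between MCF10A and MDA-MB-436, since both were under the background. CXCL10 had an intensity of 2790.3 in HT-29, 228.5 in MDA-MB-436 and 5.28 in MCF10A. HT-29 was 12.2-fold above MDA-MB-436, which in turn was at least 7.64-fold above MCF10A.

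CXCL11 kept the order of CXCL10, at 2273.8 in HT-29, 119 in MDA-MB-436 and 4.49 in MCF10A. HT-29 was 19.0-fold above MDA-MB-436, and MDA-MB-436 was at least 3.99-fold above MCF10A, a bound just short of the 4-fold limit. MDA-MB-436 thus had CXCL10 and CXCL11 above background with CXCL9 under it. CXCL10 and CXCL11 held places 2 and 3 among the 14410 genes ranked by measured difference between HT-29 and MCF10A, and CXCL9 place 31. These ranks rest on MCF10A values under the background. In bulk RNA such as this, fewer cells with a transcript and less transcript per cell cannot be told apart.

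**Figure D1:**
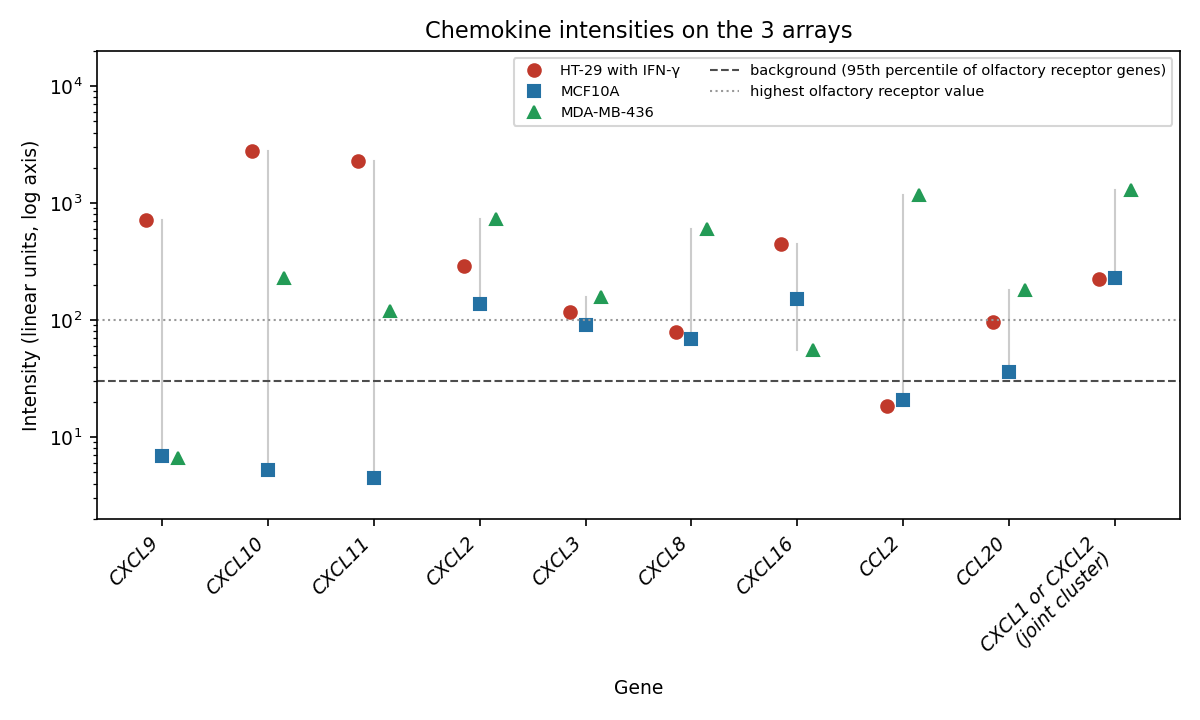
Intensity of each chemokine (log axis, linear units) on the arrays of HT-29 with IFN-γ (circles), MCF10A (squares) and MDA-MB-436 (triangles), 1 array per line with no error bars; grey lines join the lowest and highest array, the dashed line is the background of 29.9 and the dotted line the highest olfactory receptor value of 101. The CXCR3 ligands and CXCL16 are brightest in HT-29, and CXCL2, CXCL3, CXCL8, CCL2 and CCL20 in MDA-MB-436.

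The neutrophil attractants had another order, with MDA-MB-436 the brightest array for each. CXCL8, also known as interleukin 8, was at 595 in MDA-MB-436, 79.6 in HT-29 and 69.3 in MCF10A. MDA-MB-436 was 7.47-fold above HT-29 and 8.59-fold above MCF10A. The HT-29 and MCF10A values differed by 1.15-fold, and 79.0% of the genes above background on either of those arrays differed by as much or more. Both lay under the highest olfactory receptor value, so CXCL8 was not clearly above background in either line.

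CXCL2 was at 736 in MDA-MB-436, 288 in HT-29 and 136 in MCF10A. MDA-MB-436 was 5.42-fold above MCF10A and 2.56-fold above HT-29, and HT-29 was 2.12-fold above MCF10A. CXCL3, the neighbouring copy, was at 156 in MDA-MB-436, 117 in HT-29 and 91.3 in MCF10A. Its widest difference was 1.71-fold, and no comparison of CXCL3 reached 4-fold. The joint cluster of CXCL1 and CXCL2 was at 1303 in MDA-MB-436, 225 in HT-29 and 228 in MCF10A. MDA-MB-436 was 5.80-fold above HT-29 and 5.72-fold above MCF10A, and the other two arrays differed by 1.01-fold. Related copies such as these can share probe signal, so the values of CXCL2, CXCL3 and the joint cluster are uncertain as to the gene of origin.

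CXCL16, a transmembrane chemokine that is also shed in soluble form, was brightest in HT-29, at 447, with 151 in MCF10A and 55.2 in MDA-MB-436. HT-29 was 8.09-fold above MDA-MB-436 and 2.97-fold above MCF10A, and MCF10A was 2.73-fold above MDA-MB-436. CXCL16 was the one member brighter in MCF10A than in MDA-MB-436 with both arrays above background. CCL2, the monocyte attractant, was at 1171.8 in MDA-MB-436, 20.9 in MCF10A and 18.6 in HT-29. It was at least 39.2-fold brighter in MDA-MB-436 than in either other line, where it lay under the background. CCL20 was at 181 in MDA-MB-436, 96.1 in HT-29 and 36.0 in MCF10A. MDA-MB-436 was 5.02-fold above MCF10A and 1.88-fold above HT-29, but the MCF10A value was close to the background.

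Set against MCF10A, HT-29 had 3 of the 9 measured members at least 4-fold higher and 0 lower. Over all genes, 4.34% were higher and 3.5% lower by the same rule. The median log2 difference of the members was 1.42, beside 0.11 over all genes. In MDA-MB-436 against MCF10A, 6 of 9 members were higher and 0 lower, where 3.65% of all genes were higher and 2.01% lower. The members' median was 2.44, beside 0.02 over all genes. The 6 were CXCL2, CXCL8, CXCL10, CXCL11, CCL2 and CCL20. With values under the background set to it, 5 of 9 were higher, CXCL11 dropping out, and 0 lower, beside 2.13% and 1.7% of all genes. With values under the highest olfactory receptor value of 101 set to it, 3 of 9 were higher (CXCL2, CXCL8 and CCL2), and CXCL10, CXCL11 and CCL20 dropped out at log2 differences of 1.18, 0.24 and 0.84.

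In HT-29 against MDA-MB-436, 4 of 9 members were higher (CXCL9, CXCL10, CXCL11 and CXCL16) and 2 lower (CXCL8 and CCL2). Over all genes, 4.21% were higher and 4.68% lower. The members' median was -0.42, beside 0.08 over all genes, since members lay on both sides. With values under the background set to it, the counts were again 4 higher and 2 lower, beside 3.59% and 3.15% of all genes, and against MCF10A 3 higher and 0 lower, beside 3.42% and 2.76%. These comparisons share arrays and are not separate evidence. The members were chosen as a family, and the counts describe these 9 genes.

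**Figure D2:**
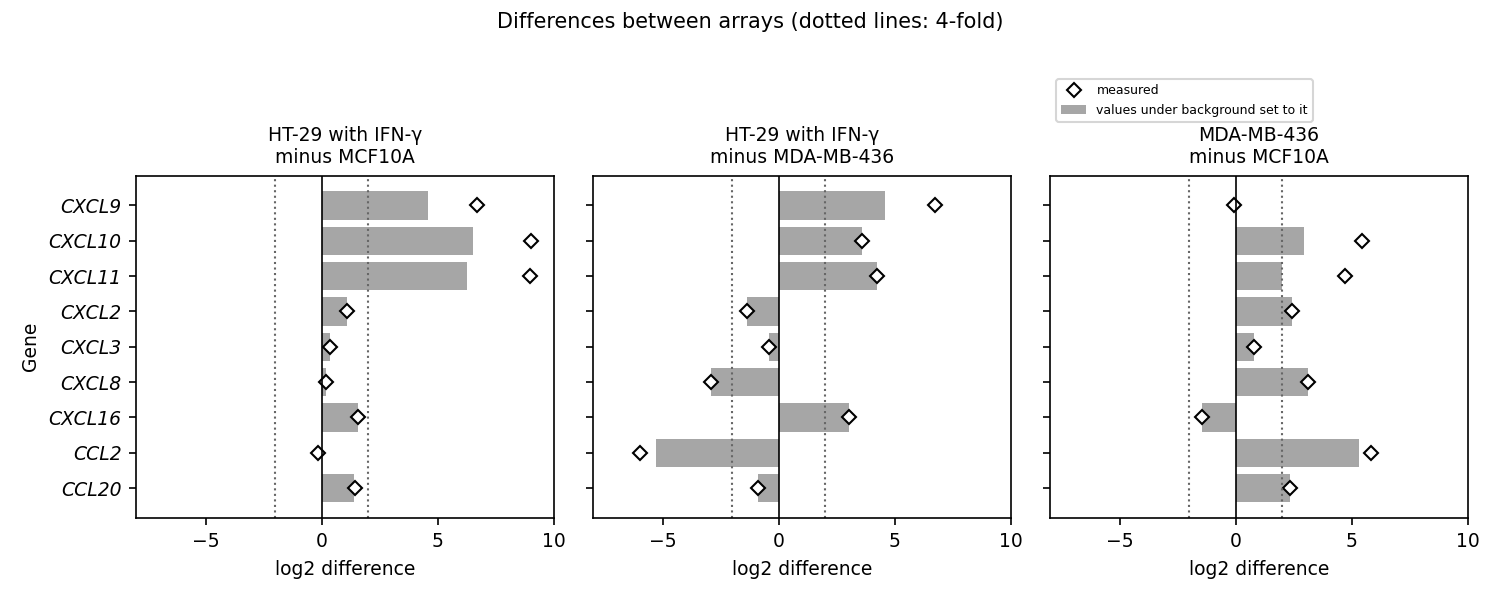
Log2 differences of the 9 chemokines with a cluster of their own, 1 panel per pair of arrays; diamonds are measured differences, bars the differences with values under background set to it, and dotted lines mark 4-fold. Where diamond and bar part, as for CXCL9, CXCL10, CXCL11 and CCL2, the dimmer array was under the background. The bar is then a lower bound if the brighter array exceeded the background. Where both arrays were under it, as for CXCL9 between the mammary lines, the bar is 0 by construction and bounds nothing.

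Of 34 other chemokines listed, 25 had a cluster of their own, and 9 of these were above background on at least 1 array. CCL5, which attracts T cells and monocytes, was at 1367.5 in MDA-MB-436, 287 in HT-29 and 28.8 in MCF10A. MDA-MB-436 was 4.77-fold above HT-29 and at least 45.7-fold above MCF10A, so CCL5 had the order of CXCL8 with a wider range. CX3CL1, the membrane-anchored ligand of CX3CR1, was at 1073.5 in HT-29, 20.4 in MDA-MB-436 and 29.97 in MCF10A. It was 35.8-fold above MCF10A, whose value lay at the background, and at least 35.9-fold above MDA-MB-436. CX3CL1 and CXCL16, the chemokines known to be made as transmembrane proteins, were thus both brightest in HT-29. CCL22, a CCR4 ligand, was at 363 in HT-29, 37.1 in MDA-MB-436 and 35.3 in MCF10A. HT-29 was 10.3-fold above MCF10A and 9.79-fold above MDA-MB-436.

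CXCL14 was above background in MDA-MB-436 alone, at 155 against 12.8 in HT-29 and 21.9 in MCF10A, and was at least 5.18-fold higher there. CCL28, a mucosal epithelial chemokine, had an intensity of 75.7 in HT-29, 11.3 in MDA-MB-436 and 85.4 in MCF10A. CCL28, CXCL5, CXCL17, CCL3 and CCL17 stayed between the background and the highest olfactory receptor value wherever they exceeded the background. Against MCF10A, HT-29 had 3 of the 25 higher by 4-fold or more and 0 lower (median 0.18), beside 4.34% and 3.5% of all genes. In HT-29 against MDA-MB-436, 4 were higher and 2 lower (median 0.03), beside 4.21% and 4.68%. With values under background set to it, 2 were higher and 2 lower, beside 3.59% and 3.15%. In MDA-MB-436 against MCF10A, 2 were higher and 1 lower (median 0.29), beside 3.65% and 2.01%. With that floor, 2 were higher and 0 lower, beside 2.13% and 1.7%. These are few genes, and the counts describe them only.

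**Figure D3:**
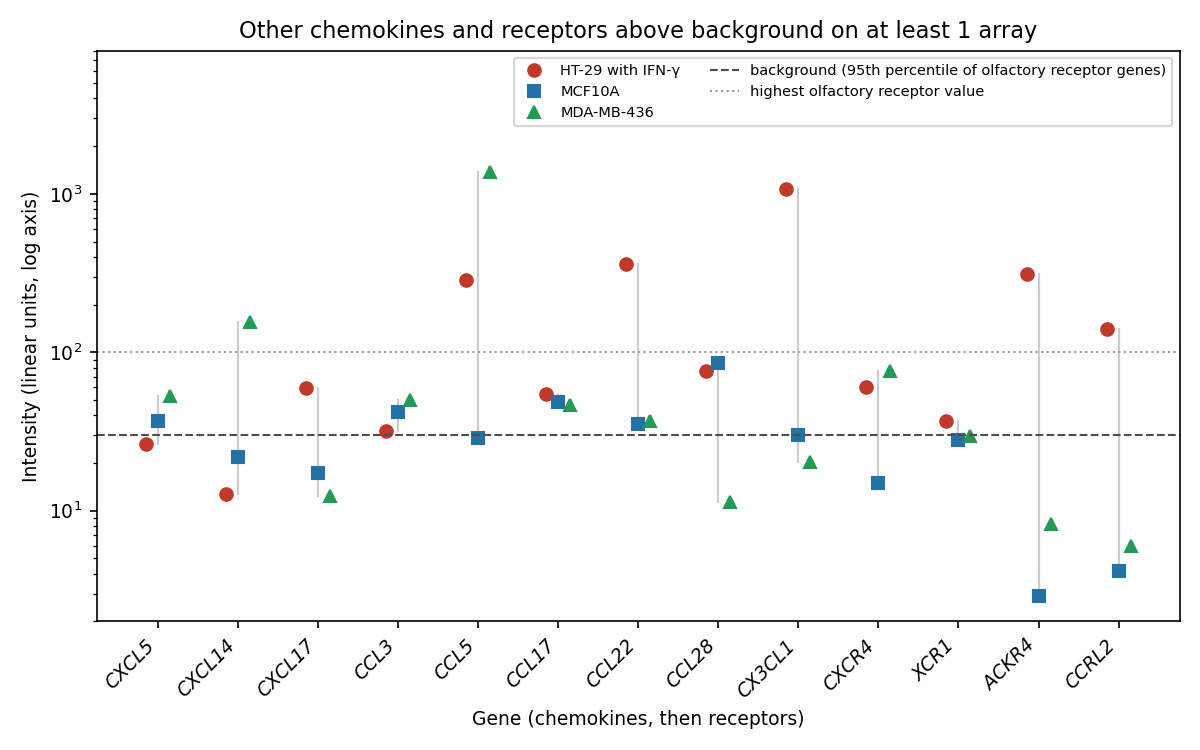
Intensity (log axis, linear units) of the 9 other chemokines and 4 receptors above background on at least 1 array, with 1 array per line and no error bars; the dashed line is the background of 29.9 and the dotted line the highest olfactory receptor value of 101. CX3CL1, CCL22, ACKR4 and CCRL2 are brightest in HT-29, and CCL5 and CXCL14 in MDA-MB-436.

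The receptors of these ligands were mostly dim. CXCR3 itself was under background in all 3 lines, at 17.4 in HT-29, 21.1 in MDA-MB-436 and 21.4 in MCF10A. The receptors of CXCL16, CCL2 and CCL20, which are CXCR6, CCR2 and CCR6, were also under background on every array. Of 13 measured conventional receptors, 2 exceeded it, namely CXCR4 and XCR1. CXCR4, the receptor of CXCL12, was at 60.8 in HT-29, 75.6 in MDA-MB-436 and 15.04 in MCF10A. XCR1 was at 36.9 in HT-29 and under background elsewhere. CXCR1 and CXCR2 had no cluster of their own.

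Atypical receptors bind or take up chemokines without driving migration. Of 5 measured, 2 exceeded the background, both in HT-29 alone. ACKR4, a scavenger of CCL19, CCL21 and CCL25, was at 313 in HT-29, 8.29 in MDA-MB-436 and 2.89 in MCF10A, at least 10.5-fold higher in HT-29. CCRL2, which binds the attractant chemerin, was at 141 in HT-29, 5.95 in MDA-MB-436 and 4.14 in MCF10A, at least 4.70-fold higher.

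Proteases that trim chemokines differed between the lines. DPP4, which clips the amino end of the CXCR3 ligands, was at 807 in HT-29, 274 in MDA-MB-436 and 4.403 in MCF10A. Its order was that of CXCL10 and CXCL11. ANPEP, which encodes aminopeptidase N, had the opposite extremes, at 2428.6 in MCF10A, 1038.1 in MDA-MB-436 and 20.6 in HT-29. The endopeptidase gene MME was at 187 in MCF10A, 123 in MDA-MB-436 and 13.1 in HT-29, and MMP14 was above background in MCF10A alone, at 157. Of the 6 measured, 1 was at least 4-fold higher and 3 lower in HT-29 than in MCF10A, and 0 higher and 2 lower than in MDA-MB-436. In MDA-MB-436 against MCF10A, 1 was higher and 1 lower. Over all genes, HT-29 had 4.34% higher and 3.5% lower than MCF10A, and 4.21% and 4.68% than MDA-MB-436. MDA-MB-436 had 3.65% higher and 2.01% lower than MCF10A.

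The IFN-γ receptor signals through JAK kinases and induces IRF1, which acts at many chemokine promoters. Of 11 measured genes of this pathway, HT-29 had 5 higher by 4-fold or more than MCF10A and 0 lower (median 1.38), and 3 were higher than in MDA-MB-436 and 0 lower (median 0.85). In MDA-MB-436 against MCF10A, 3 were higher and 0 lower (median 1.48), namely IRF8, IRF9 and SOCS1. With values under background set to it, 1 was higher, IRF9, and the median was 0.44. Beside these counts, 4.34% of all genes were higher and 3.5% lower in HT-29 than in MCF10A. Against MDA-MB-436, HT-29 had 4.21% higher and 4.68% lower. For MDA-MB-436 against MCF10A the shares were 3.65% and 2.01%, or 2.13% and 1.7% with that floor. IRF1 was at 3960.6 in HT-29, 326 in MDA-MB-436 and 94.9 in MCF10A, the order of CXCL10 and CXCL11. IRF9, a subunit of the type I interferon factor ISGF3, was at 1345.5 in HT-29, 916 in MDA-MB-436 and 80.5 in MCF10A. The HT-29 and MDA-MB-436 values of IRF9 differed by 1.47-fold and those of IRF1 by 12.1-fold. For CXCL10 and CXCL11 the folds were 12.2 and 19.0, and for CXCL9 at least 23.9. The part of IRF1 and IRF9 in the chemokine levels was not tested. IRF8 was at 263 in HT-29, 30.6 in MDA-MB-436 and 5.88 in MCF10A, and JAK2 at 405, 163 and 56.5. The receptor subunit genes IFNGR1 and IFNGR2 were above background in all 3 lines, between 316 and 942 and between 380 and 692 respectively.

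The NF-κB list held subunits, inhibitors and cytokines. Of 18 measured, 0 were at least 4-fold higher and 2 lower in HT-29 than in MCF10A (median 0.29), or 1 lower with values under background set to it, and 0 higher and 5 lower in HT-29 than in MDA-MB-436 (median -0.49). In MDA-MB-436 against MCF10A, 3 were higher and 0 lower (median 0.51). The 3 were IL1B, IL6 and TNFAIP3. Of all genes, 4.34% were higher and 3.5% lower in HT-29 than in MCF10A, or 2.76% lower with that floor. Against MDA-MB-436 the shares in HT-29 were 4.21% and 4.68%. MDA-MB-436 had 3.65% higher and 2.01% lower than MCF10A. IL1B, an inflammatory cytokine that induces chemokines, was at 1276.9 in MDA-MB-436, 113 in MCF10A and 14.4 in HT-29. IL6 was at 378 in MDA-MB-436 and under background elsewhere. TNFAIP3, the NF-κB feedback inhibitor A20, was at 986 in MDA-MB-436, 131 in MCF10A and 92.8 in HT-29, 10.6-fold above HT-29.

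For IL1A the pattern differed, with 1933.0 in MDA-MB-436, 1415.9 in MCF10A and 26.5 in HT-29. MCF10A thus had IL1A well above background with CXCL8, CCL2 and CCL20 at 69.3, 20.9 and 36.0. The subunit gene RELA was above background in all lines, at 1382.1 in HT-29, 1058.5 in MDA-MB-436 and 860 in MCF10A, and NFKB1 was between 371 and 515. TNF was under background on every array.

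**Figure D4:**
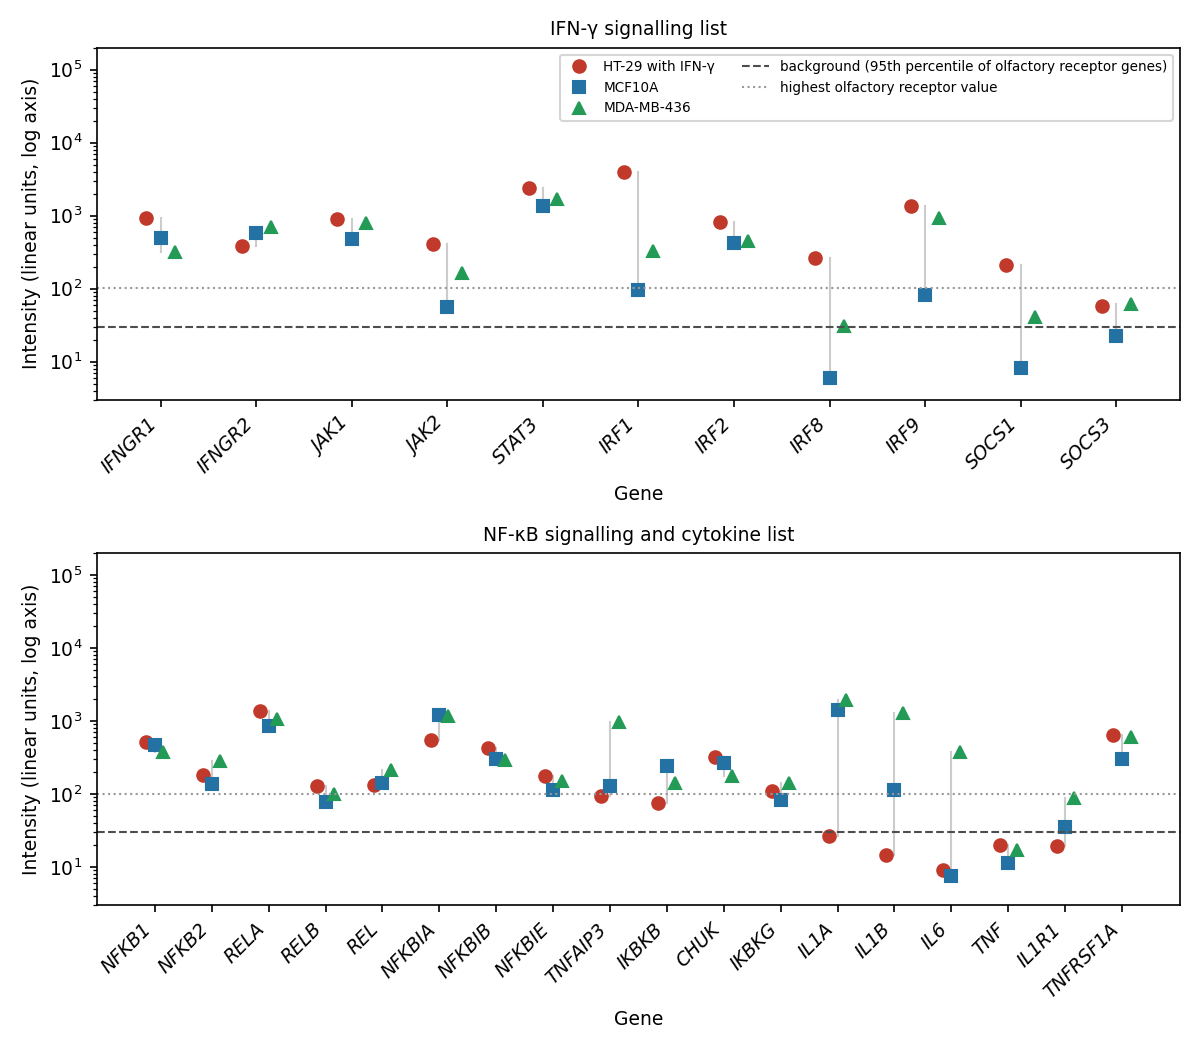
Intensity (log axis, linear units) of the measured genes of the IFN-γ signalling list (upper panel) and the NF-κB signalling and cytokine list (lower panel) in HT-29 with IFN-γ (circles), MCF10A (squares) and MDA-MB-436 (triangles), 1 array per line with no error bars; dashed line, background of 29.9; dotted line, highest olfactory receptor value of 101. IRF1, IRF8 and SOCS1 are brightest in HT-29, and IL1B, IL6 and TNFAIP3 in MDA-MB-436.

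Chemokine transcripts carry AU-rich elements, and proteins that bind these speed or slow their decay. ZFP36, which encodes the destabilising protein tristetraprolin, was lowest where CXCL8, CXCL2 and CCL2 were brightest, at 52.8 in MDA-MB-436, 252 in MCF10A and 763 in HT-29. The MDA-MB-436 value was 14.5-fold below HT-29 and 4.77-fold below MCF10A. Its relative ZFP36L1 was at 197 in MDA-MB-436, 960.4 in MCF10A and 799 in HT-29. The other 7 genes of the list, among them ELAVL1 and ZC3H12A, did not reach 4-fold in any comparison. Of the 9 measured, HT-29 had 2 higher and 0 lower than MDA-MB-436, beside 4.21% and 4.68% of all genes. MDA-MB-436 had 0 higher and 2 lower than MCF10A, beside 3.65% and 2.01%. HT-29 had 0 higher and 0 lower than MCF10A, beside 4.34% and 3.5%. Other members did not run opposite to ZFP36. The CXCR3 ligands and CXCL16 were brightest in HT-29, where ZFP36 was highest. CXCL2 was also brighter in HT-29 than in MCF10A, at 288 against 136. The part of ZFP36 and ZFP36L1 in the chemokine levels was not tested.

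By position, 2 groups of these genes lie on chromosome 4. In RefSeq's gene order, ART3 lies between CXCL9 and CXCL10, and it was under background on all arrays, at 23.4 in HT-29, 6.45 in MDA-MB-436 and 7.40 in MCF10A. Of the 10 nearest measured genes around CXCL9, CXCL10 and CXCL11, 0 reached 4-fold in any comparison. Their log2 differences ran from -1.79 to 1.19 for HT-29 minus MCF10A and from -0.71 to 1.87 for HT-29 minus MDA-MB-436. Over all genes, between 2.01% and 4.68% passed the call in each direction of each comparison, so 0 of 10 is near that share. The adjoining genes SDAD1 and NUP54 were at 380.1 and 536 in HT-29, 288 and 405 in MCF10A, and 162 and 282 in MDA-MB-436.

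Within the other group, which runs from CXCL8 to CXCL2, CXCL6 and PPBP were under background in all lines, and CXCL5 did not exceed 52.9. Beyond CXCL2 lie genes of epidermal growth factor ligands. EPGN, which encodes epigen, was at 773 in MCF10A, 4.75 in HT-29 and 5.95 in MDA-MB-436. EREG, which encodes epiregulin, was at 3255 in HT-29, 961 in MDA-MB-436 and 266 in MCF10A. These did not have the order of CXCL8 and CXCL2. PARM1, the fifth measured gene beyond CXCL2, did, at 120 in MDA-MB-436, 50.6 in HT-29 and 9.14 in MCF10A. On the far side of CXCL8, ALB, AFP and AFM, expressed in liver, were under background on every array. Of the 10 nearest measured genes around this group, HT-29 had 2 higher and 2 lower than MCF10A, beside 4.34% and 3.5% of all genes. HT-29 had 1 higher and 0 lower than MDA-MB-436, beside 4.21% and 4.68%. MDA-MB-436 had 1 higher and 1 lower than MCF10A, beside 3.65% and 2.01%.

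**Figure D5:**
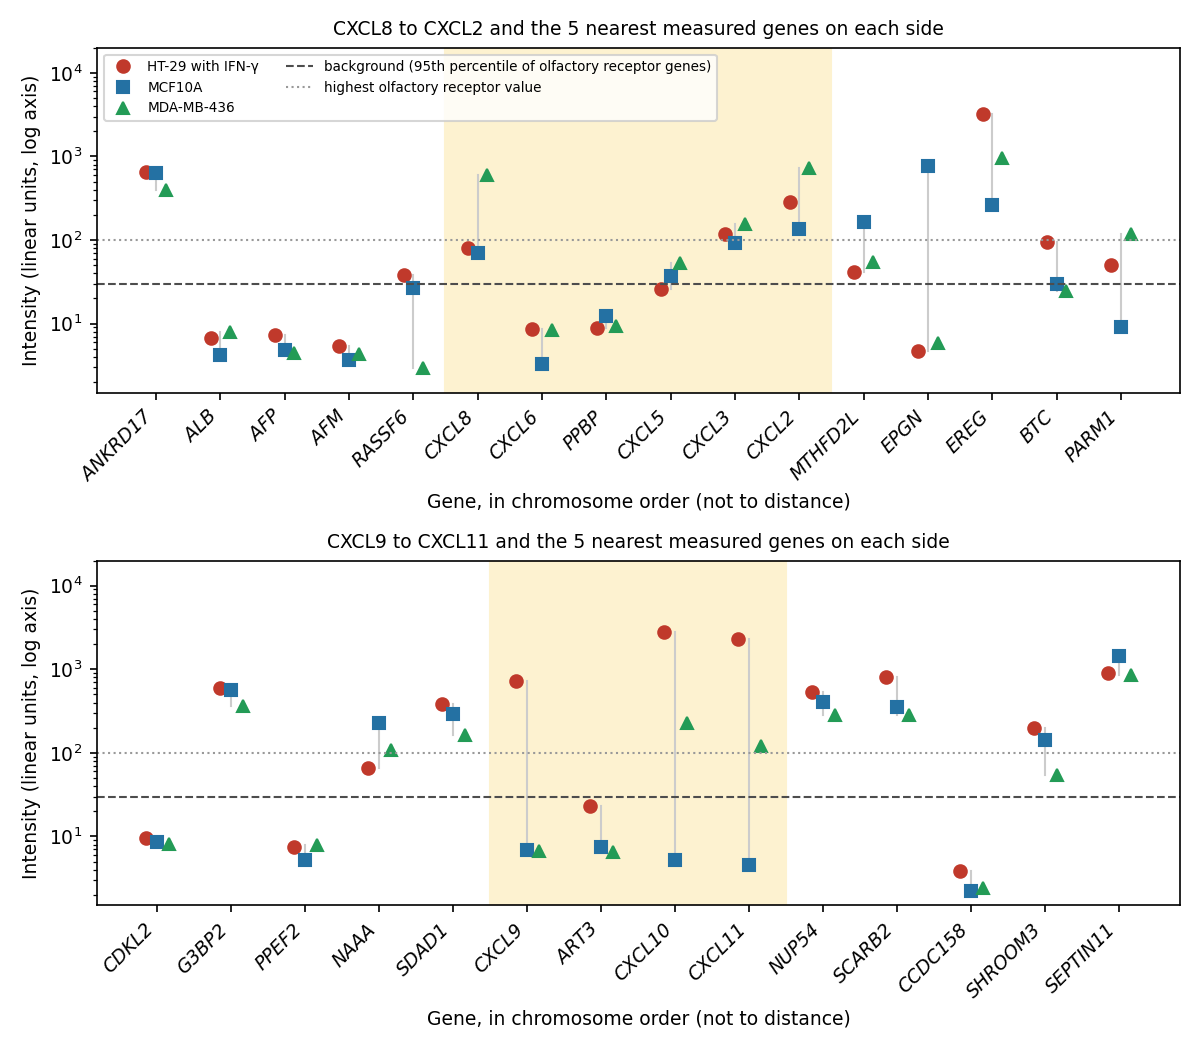
Intensity (log axis, linear units) of the measured genes from CXCL8 to CXCL2 (upper panel) and from CXCL9 to CXCL11 (lower panel), shaded, with the 5 nearest measured genes on each side in chromosome order, for HT-29 with IFN-γ (circles), MCF10A (squares) and MDA-MB-436 (triangles), 1 array per line with no error bars. Around CXCL9, CXCL10 and CXCL11 the flanking genes differ by less than 4-fold. RASSF6, next to CXCL8, and MTHFD2L, EPGN, EREG and PARM1, beyond CXCL2, reach 4-fold in measured values for some pair of arrays. For RASSF6, EPGN and PARM1 the dimmer array was under the background, and the brightest values of RASSF6 and PARM1 were only 38.3 and 120.

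Genes of most similar profile were found by the Euclidean distance over the log2 intensities of the 3 arrays, with values under background set to it. With 3 arrays such a likeness is a description, and, since levels of different probes enter the distance, it also depends on their brightness. Nearest to CXCL11 were OAS2 at a distance of 0.54, LAMP3 at 0.74 and IFITM1 at 0.75. Nearest to CXCL10 were G0S2 at 0.71, TSPAN15 at 0.91 and CXCL11 at 0.98. Among CXCL10, CXCL11 and these nearest genes, only TSPAN15 was above background in MCF10A. The distances that do not involve TSPAN15 thus rest on HT-29 and MDA-MB-436 alone. For CXCL9 the closest genes were TMC5, TMPRSS4 and LGALS9, all within 0.017. For these genes and CXCL9 both mammary arrays were at the background, so their distance rests on HT-29 alone.

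The nearest profiles to CXCL8 were those of KCNAB2 (0.36), SLC22A17 (0.54) and RNFT2 (0.63), and to CXCL2 those of CMTM3 (0.57), BAMBI (0.66) and TGFB2 (0.66). FOS (0.36), INPP1 (0.40) and BTN3A2 (0.41) were closest to CXCL16, and DNAJC4, MINDY2 and ACAP3 to CXCL3, all within 0.18. TFPI2 (0.20), UCHL1 (0.23) and DDR2 (0.38) were closest to CCL2, and HRH1 (0.29), ZNF136 (0.44) and KPNA5 (0.50) to CCL20. CCL2, TFPI2 and UCHL1 were under the background in HT-29 and MCF10A, so their distance rests on MDA-MB-436 alone.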

How the data were processed

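Exon arrays of 3 cell lines, 1 array each, were compared. The authors deposited 1 linear intensity per array for each of 18708 transcript clusters. Summary, background correction and normalization are not given in the sources used here, and hg19 is listed per the submitters' processing notes. Array medians differ, so the 3 columns as deposited do not share one distribution. What scaling, if any, preceded the cluster values cannot be told from this.

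Clusters were named from the platform annotation and updated through gene identifiers (14705 of 14733 single-symbol clusters matched); 2875 clusters with several symbols were not named. The brightest cluster by mean stood for a gene. Intensities were log2 transformed and differences taken between arrays, with no test. The call step and motif search were tested on simulated data. Members and lists were chosen with earlier results of these data known. Named genes are the members, other chemokines and receptors above background, up to 4 genes per further list with the widest differences, 3 nearest profiles per member and 5 neighbours on each side; RELA, NFKB1, TNF, SOCS1, ZC3H12A, the IFN-γ receptor subunits, PTPRC, CDH17 and receptors under background were named after their values were seen. Alternatives were quantile normalization, median centring, other filters and folds, floors at the background and, added after the data were seen, at the highest olfactory receptor value, the median over clusters and a pseudocount of 16. Python 3.11.15, numpy 2.4.6, pandas 2.3.3, matplotlib 3.10.9 and Biopython 1.88 were used.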

Additional observations from a re-analysis of the deposited data

How the results depend on the processing

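In 4 of the 9 settings tried on the members (no filter, both higher background percentiles as a filter, and the median over clusters) every log2 difference was the same as reported by construction or for want of further clusters, so they say nothing about stability. In the other 5 settings, 0 of 135 member differences changed sign. The floors and the pseudocount keep the order of the arrays, so only quantile normalization and median centring could have turned a sign. In these 5 settings, 5 differences lost their call, all in MDA-MB-436 minus MCF10A. These were CXCL11 with values under background set to it (log2 difference 2.0, just short of 4-fold), CCL20 with a pseudocount of 16 (1.92), and CXCL10, CXCL11 and CCL20 with values under the highest olfactory receptor value set to it (1.18, 0.24 and 0.84). That last setting, chosen after the data were seen, left, against MCF10A, 3 members higher in MDA-MB-436 in place of 6. A limit of 2-fold gave, against MCF10A, 6 members higher in HT-29 in place of 3, and 1 member lower in MDA-MB-436 in place of 0. It also gave 3 members lower in HT-29 than in MDA-MB-436 in place of 2. A limit of 8-fold left 1 member lower in HT-29 than in MDA-MB-436 in place of 2, and, against MCF10A, 4 higher in MDA-MB-436 in place of 6.

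List medians turned sign in 16 of 162 cases. In the main setting, the medians that turned all lay close to no difference, between -0.04 and 0.27. Quantile normalization gave, for HT-29 minus MCF10A, medians of -0.15 for conventional receptors, -0.04 for leukocyte, -0.09 for fibroblast and -0.01 for endothelial markers. For HT-29 minus MDA-MB-436 it gave 0.08 for CC chemokines, -0.02 for leukocyte and 0.01 for fibroblast markers. For MDA-MB-436 minus MCF10A it gave -0.02 for atypical receptors, -0.25 for leukocyte and for fibroblast, -0.03 for endothelial and -0.06 for colon markers. Median centring gave 0.05 for CC chemokines and 0.08 for fibroblast markers in HT-29 minus MDA-MB-436, and -0.06 for leukocyte and -0.10 for fibroblast markers in MDA-MB-436 minus MCF10A. The cause was not tested. No paired analysis was possible because each group had 1 array. Signal over background limits CXCL8 in HT-29 and MCF10A, CXCL3 in MCF10A, CXCL16 in MDA-MB-436 and CCL20 in HT-29 and MCF10A, which lay between the background and the highest olfactory receptor value.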

Other observations

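A cluster annotated jointly to CCL15-CCL14, CCL15 and CCL14, which cannot be given to one of these genes, was at 276 in HT-29 with IFN-γ, 8.73 in MCF10A and 11.2 in MDA-MB-436. It was at least 9.24-fold brighter in HT-29 than in either mammary line. The 3 clusters annotated jointly to CCL3, CCL3L1 and CCL3L3 lay between 44.98 and 79.8 on the 3 arrays, and the 4 annotated jointly to CCL4, CCL4L1 and CCL4L2 lay under the background on all of them. These clusters entered no count.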
